A study of Mus musculus with 4 samples.

Results

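The 10 genes of the hypoxia response described here were followed in macrophages kept with proteasome inhibitors: the oxygen-regulated subunit of hypoxia-inducible factor 1 (*Hif1a*), the prolyl hydroxylases *Egln1* and *Egln3*, and the target genes *Vegfa*, *Adm*, *Slc2a1*, *Hk2*, *Pfkfb3*, *Bnip3* and *Ndrg1*. They were chosen by name, and each had a probe among the 20133 genes that could be named on the array. J774.1 cells, a mouse monocyte-macrophage line, received one of 3 compounds at 1 μM for 4 hours, or DMSO alone. MG132 inhibits the proteasome, epoxomicin its 20S core, and ONX0914 its β5 and β5i subunits. Each culture gave 1 single-color array, so that every condition was measured once and no difference has a replicate check or a *P* value. The treatment label of the ONX0914 array reads ONX-0912, whereas the treatment protocol names ONX0914, the name used here. The labels name no change of oxygen and no engineered allele.

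Hypoxia-inducible factor 1 is a pair of a regulated α subunit and the constant partner ARNT. When oxygen is present, prolyl hydroxylases modify the α subunit, the von Hippel-Lindau protein (VHL) and its ubiquitin ligase bind it, and the proteasome degrades it. When it accumulates, it binds short DNA elements in the promoters and enhancers of genes for glucose uptake, glycolysis, vessel growth and mitophagy, and in macrophages it is known to accompany inflammatory activation. The arrays measured RNA, and the HIF-1α protein was not measured in these files.

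The element bound by the factor has the core ACGTG or GCGTG. Both were searched on both strands in the promoter windows of RefSeq on GRCm38.p6. These run from 250 bases before to 50 bases after a listed start, which can lie inside the gene. Such a window was given for 9 of the 10 members. The core was present in at least 1 window of each of these 9, while 46.7% of all 27025 genes held it. The only *Hif1a* window lay inside the gene. Of the 2 *Vegfa* windows, the one at the beginning of the gene had 0 matches and the one inside the gene had 2. Of the 32851 windows, 43.8% held a core. ACGTG alone was present in 8 of the 9 members and in 21.8% of all genes. On the same search, 38 of 46 other genes of the pathway held a core. Many of these genes are known as HIF targets, and a match is a run of letters, not a site shown to be bound. *Bnip3* had 5 matches, of which one ACGTG and its reverse complement CACGT overlap in the palindrome CACGTG, and *Slc2a1*, *Hk2*, *Egln1* and *Adm* had 2 each. The last 150 bases before the listed start are shown for 5 members that were measured on every array and whose responses differed. The bases are printed 5′ to 3′ on the strand of the gene, with the core on either strand in capitals. For *Pfkfb3*, which has 2 windows, the one farther upstream is shown. Its listed start lies inside the gene, whose first base is chr2:11554071, so most of the bases shown are within the gene.
Slc2a1, chr4:119108595-119108744, plus strand: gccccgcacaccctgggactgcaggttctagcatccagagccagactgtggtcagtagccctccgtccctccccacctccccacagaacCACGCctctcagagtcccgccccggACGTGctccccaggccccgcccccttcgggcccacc
Hk2, chr6:82774455-82774604, minus strand: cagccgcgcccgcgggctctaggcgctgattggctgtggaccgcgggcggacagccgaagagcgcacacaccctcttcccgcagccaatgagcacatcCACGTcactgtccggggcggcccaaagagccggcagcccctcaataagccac
Pfkfb3, chr2:11553930-11554079, minus strand: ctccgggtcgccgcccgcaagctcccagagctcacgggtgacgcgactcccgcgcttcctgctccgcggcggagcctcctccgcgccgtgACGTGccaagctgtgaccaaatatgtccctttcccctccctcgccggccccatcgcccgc
Bnip3, chr7:138909507-138909656, minus strand: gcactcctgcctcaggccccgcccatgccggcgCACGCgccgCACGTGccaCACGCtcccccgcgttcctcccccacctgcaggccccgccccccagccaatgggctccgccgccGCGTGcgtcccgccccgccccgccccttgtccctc
Egln1, chr8:124949255-124949404, minus strand: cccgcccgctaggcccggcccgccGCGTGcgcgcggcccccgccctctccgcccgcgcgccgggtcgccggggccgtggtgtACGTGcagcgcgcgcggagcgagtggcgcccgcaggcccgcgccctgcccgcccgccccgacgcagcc

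All member signals are processed signals of the scanner, in arbitrary units after subtraction of the background within the array. Levels are the log2 of that signal minus the 75th percentile of the array's signals. A difference is the difference between levels on the log2 scale, so that 1 equals 2-fold, and its error is the scanner's own error of the spots, which covers no variation between cultures. On all 4 arrays, 7 members were well above background (*Hif1a*, *Egln1*, *Slc2a1*, *Hk2*, *Pfkfb3*, *Bnip3* and *Ndrg1*), *Vegfa* was so on 2 arrays, *Adm* on 1 and *Egln3* on none. The brightest of a gene's probes stood for the gene. Because all 3 inhibitors were set against the same DMSO array, an odd spot on that array would move the 3 differences together. In the RNA of a whole culture, fewer cells that express a gene and less RNA per cell cannot be told apart. Levels of different genes depend on their probes and were not compared with each other.

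**Figure D1:**
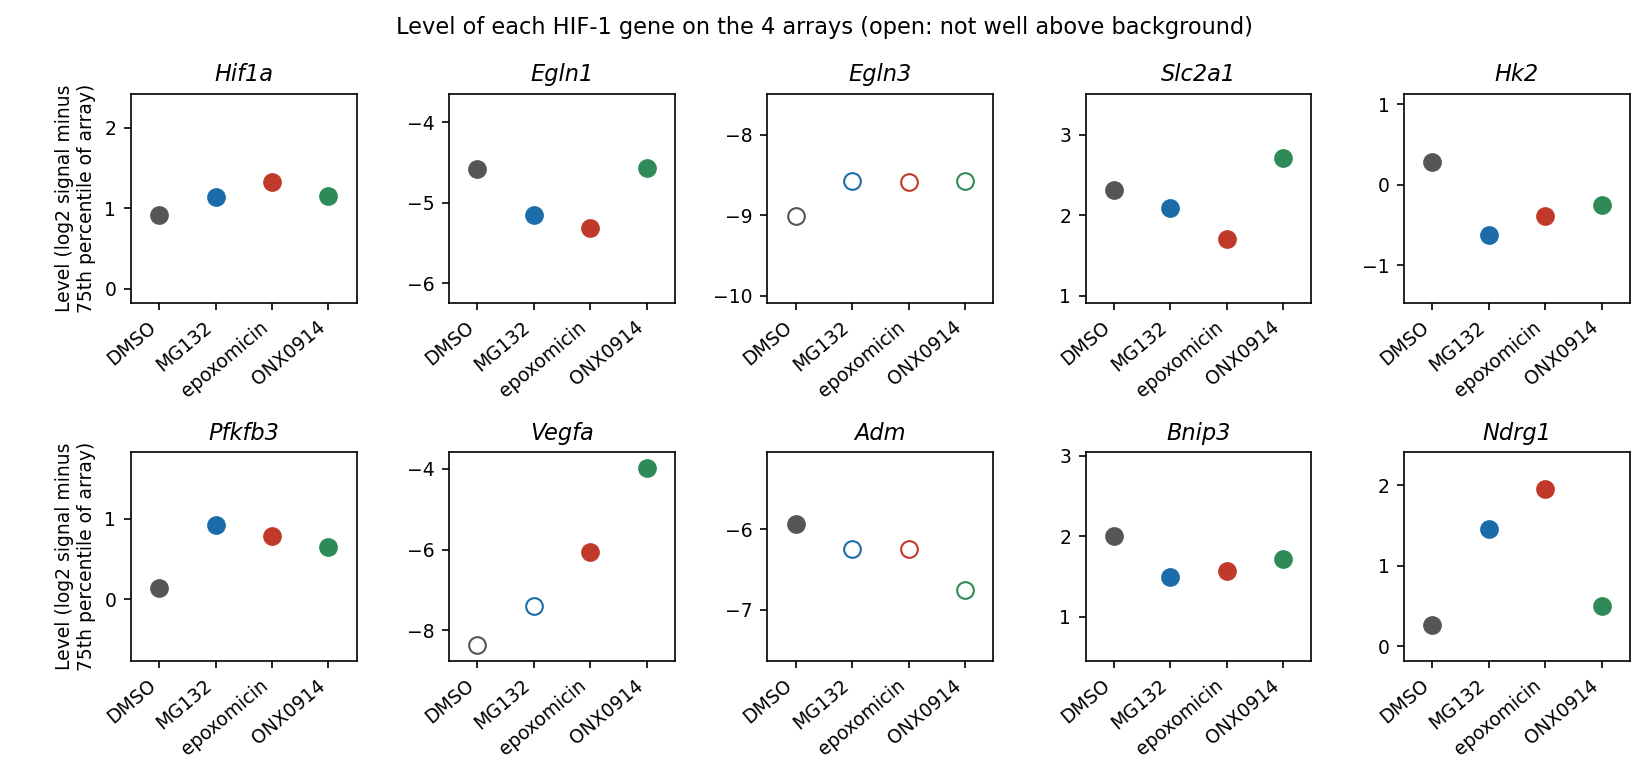
Level of each of the 10 genes (log2 processed signal minus the array's 75th percentile, y axis, with a scale of its own in each panel) on the DMSO, MG132, epoxomicin and ONX0914 arrays (x axis), 1 array per condition. Filled points were well above background and open points were not. *Ndrg1* is highest with epoxomicin, *Vegfa* with ONX0914, and *Hk2* and *Bnip3* are highest with DMSO.

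*Hif1a*, which encodes the regulated α subunit, gave a signal of 3129 in solvent, and 3205, 4226 and 3566 with MG132, epoxomicin and ONX0914, respectively. The gene was thus plainly measured, and the spread over the arrays was small. The differences from DMSO were 0.22 ± 0.20, 0.41 ± 0.20 and 0.23 ± 0.20 in the same order, the largest of them 1.33-fold. Among the 12730 genes well above background on all arrays, 69.5%, 79.3% and 78.6% had a lower difference with these inhibitors. The difference with MG132 depended on the scaling between arrays and was 0.03 with no scaling.

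The prolyl hydroxylases gave low signals. *Egln1*, which encodes PHD2, the main oxygen sensor that marks HIF-1α for VHL, gave 69.5 in solvent, 41.0 after MG132, 42.3 after epoxomicin and 68.0 after ONX0914. The MG132 and epoxomicin arrays were low, and the ONX0914 array lay beside DMSO. The differences from DMSO were -0.58 ± 0.30, -0.74 ± 0.31 and 0.01 ± 0.26 in that order of inhibitors. ONX0914 exceeded epoxomicin by 0.75 ± 0.32 and MG132 by 0.58 ± 0.31. This faint gene was sensitive to background correction, since normexp gave -1.20, -1.78 and -1.16 for the 3 inhibitors. With the outlier spots left out of its fit, a setting added after seeing the data, normexp gave -0.05 with MG132. *Egln3*, which encodes PHD3, a hydroxylase that is itself a strong HIF target, had 2 probes whose signals ran from 3.01 to 4.38, and no array was well above background for either.

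Of the glucose genes, *Slc2a1* encodes the glucose transporter GLUT1. Its signals were 8224 in solvent, 6184 after MG132, 5503 after epoxomicin and 10610 after ONX0914. It lay below DMSO with MG132 and epoxomicin and above it with ONX0914. The differences were -0.22 ± 0.20, -0.60 ± 0.20 and 0.40 ± 0.20, and ONX0914 exceeded epoxomicin by 1.01 ± 0.20 (2.01-fold), just past the 2-fold mark. Over the alternative settings that last value ran from 0.87 to 1.08.

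*Hk2* encodes hexokinase 2, which traps glucose in the cell as glucose 6-phosphate. The solvent array read 2018, the MG132 array 946.9, the epoxomicin array 1282 and the ONX0914 array 1354. Every inhibitor array was below DMSO, and MG132 was the lowest. The differences were -0.90 ± 0.20 (1.87-fold lower), -0.68 ± 0.20 and -0.54 ± 0.20. Ranked from the lowest difference among the 12730 genes well above background on all arrays, *Hk2* came 574 under MG132, 672 under ONX0914 and 1369 under epoxomicin. The difference with MG132 passed 2-fold without scaling (-1.09) and, narrowly, when arrays were shifted to their medians.

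*Pfkfb3* encodes the bifunctional enzyme that makes fructose 2,6-bisphosphate, the activator of phosphofructokinase. Its brightest probe (transcript NM_001177753) gave 1820 in solvent, 2761 after MG132, 2914 after epoxomicin and 2537 after ONX0914. By this probe every inhibitor array was above DMSO, in the opposite direction to *Hk2*. The differences were 0.79 ± 0.20, 0.65 ± 0.20 and 0.52 ± 0.20, all under 2-fold. The second probe (transcript NM_133232) was faint, with 45.8, 47.8, 59.3 and 35.4, and its difference with ONX0914 was -0.33 ± 0.34, of the opposite sign to the first. Averaging both probes left 0.52, 0.50 and 0.09.

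The secreted products were at the edge of detection. *Vegfa* encodes vascular endothelial growth factor A, the classic signal for vessel growth in hypoxia. One probe (transcript NM_001025257) read 5.02 in solvent, 8.63 after MG132, 25.4 after epoxomicin and 102.2 after ONX0914, of which only the last pair were well above background. With ONX0914 it was at least 7.13-fold higher than DMSO (2.83 on the log2 scale) and with epoxomicin at least 1.70-fold. In these bounds the lowest signal that counted as well above background on the dim array, 14.7 with DMSO and 17.8 with MG132, replaced the dim signal. ONX0914 exceeded epoxomicin by 2.07 ± 0.35 and MG132 by at least 2.37. The second *Vegfa* probe (transcript NM_001025250) read 3.55, 4.28, 6.24 and 4.65, well above background on no array, so the change was seen by 1 of 2 probes. With normexp, ONX0914 exceeded epoxomicin by 0.70 and MG132 by at least 0.53, and with the mean of both probes by 0.85 and at least 0.14, all under 2-fold. With the mean of both probes the ONX0914 difference from DMSO was at least 0.60, under 2-fold, normexp gave no bound above DMSO, and with outlier spots left out of the normexp fit it was at least 1.06.

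*Adm* encodes adrenomedullin, a vasodilator peptide. It read 27.1 in solvent, 19.1 after MG132, 22.2 after epoxomicin and 15.0 after ONX0914, and only DMSO was well above background. It was at least 1.25-fold, 1.24-fold and 1.37-fold lower with MG132, epoxomicin and ONX0914. Normexp gave bounds of -1.26, -1.81 and -1.72, past 2-fold. Bounds leave the size of the differences unmeasured.

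*Bnip3* encodes a mitochondrial receptor for mitophagy. It had 3 probes to 1 transcript (NM_009760), and the brightest gave 6599 in solvent, 4095 after MG132, 4971 after epoxomicin and 5276 after ONX0914. Every inhibitor array was below DMSO on all 3 probes. The differences of the brightest were -0.50 ± 0.20, -0.43 ± 0.20 and -0.29 ± 0.20. The second probe (4141 with DMSO) gave -0.50, -0.44 and -0.17, and the faintest (91.3 with DMSO) gave -1.05 ± 0.25, -0.66 ± 0.23 and -0.27 ± 0.22.

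**Figure D2:**
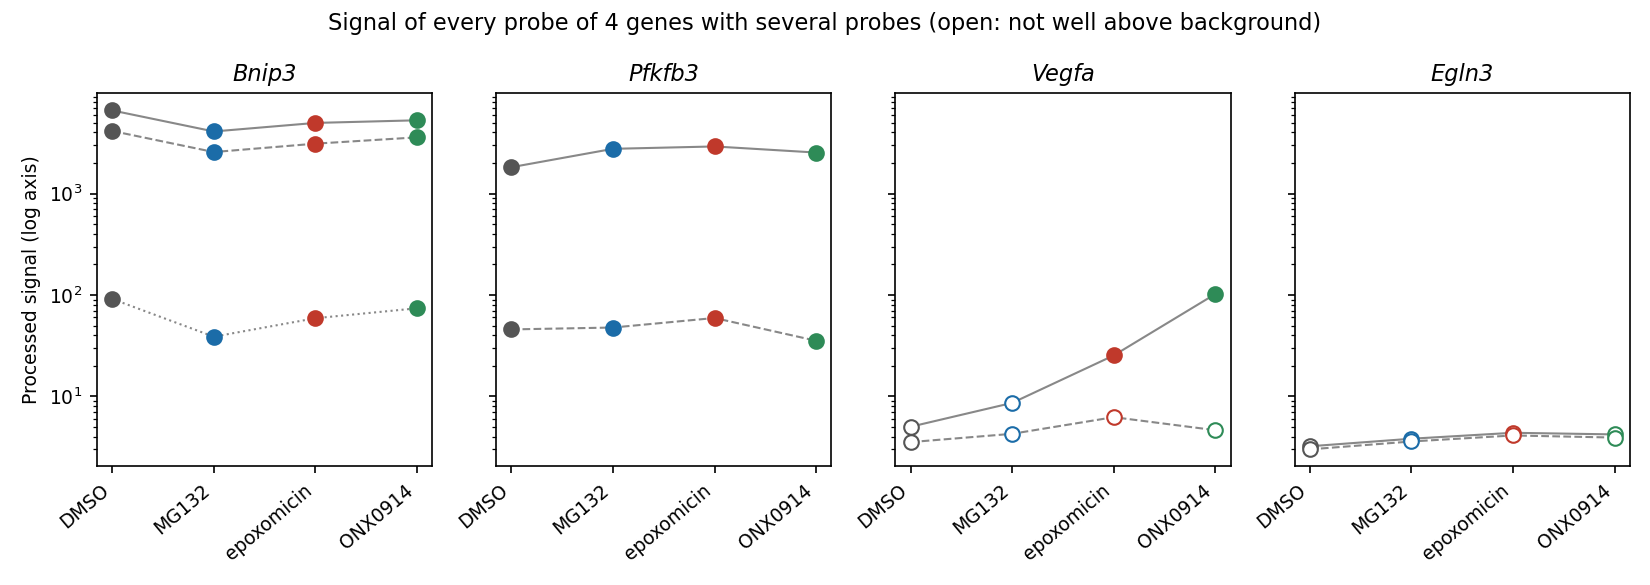
Processed signal (log axis, arbitrary units) of every probe of the 4 members with several probes on the 4 arrays, with 1 line per probe and open points where a spot was not well above background. The 3 *Bnip3* probes all dip with MG132, whereas only 1 of 2 *Vegfa* probes climbs above background and both *Egln3* probes stay below it.

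*Ndrg1*, a stress-responsive gene that hypoxia is known to induce, was the member with the largest measured increases. The solvent array read 1997, MG132 3988, epoxomicin 6548 and ONX0914 2283. The MG132 and epoxomicin arrays were high, and the ONX0914 array was close to DMSO. The differences were 1.18 ± 0.20 (2.27-fold) with MG132, 1.69 ± 0.20 (3.22-fold) with epoxomicin and 0.23 ± 0.20 with ONX0914. With no scaling the value for MG132 was 0.998, just under 2-fold. Of the genes well above background on all arrays, 95.5%, 97.3% and 79.0% had a lower difference with MG132, epoxomicin and ONX0914. ONX0914 lay 1.46 below epoxomicin (-1.46 ± 0.20) and 0.95 below MG132 (-0.95 ± 0.20), and epoxomicin exceeded MG132 by 0.50 ± 0.20.

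**Figure D3:**
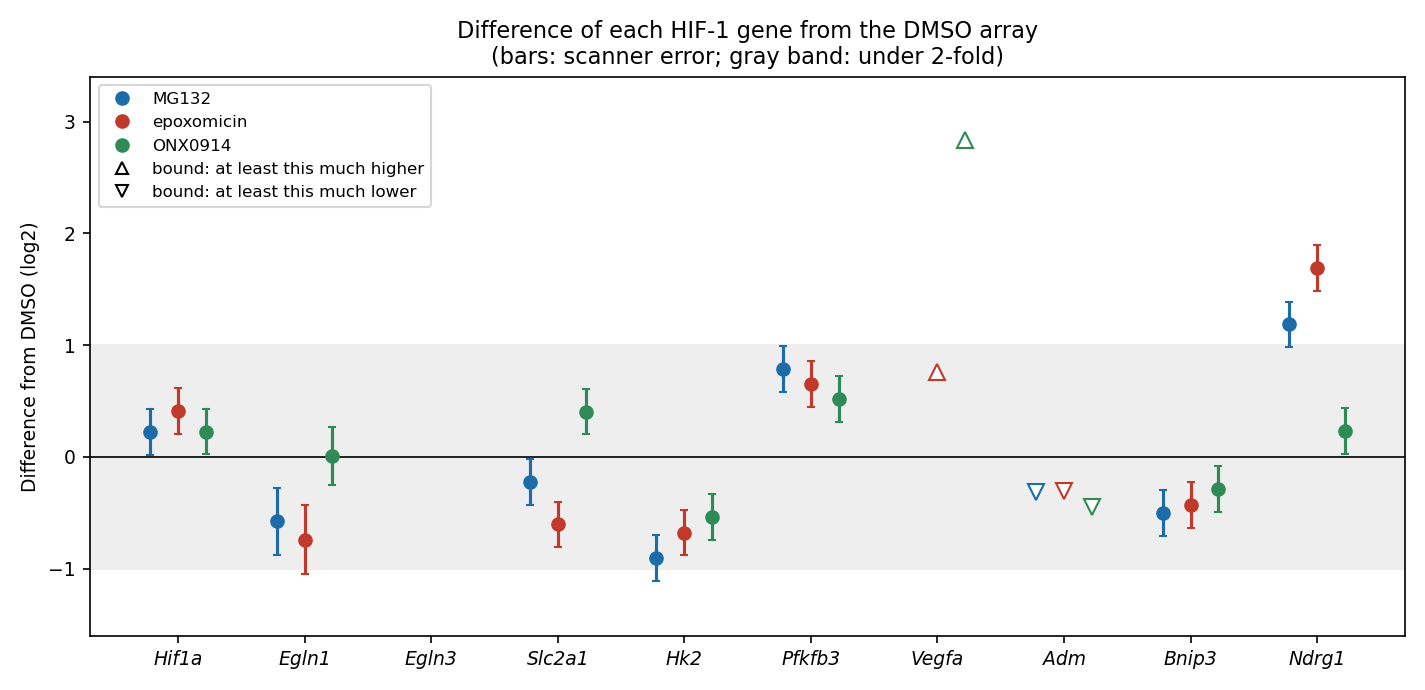
Difference of each gene from the DMSO array (log2, y axis) for MG132, epoxomicin and ONX0914. Circles are measured differences with the scanner error as bars, open triangles are bounds, and the gray band spans differences under 2-fold. *Ndrg1* with MG132 and epoxomicin and *Vegfa* with ONX0914 lie above the band, no gene lies below it, and *Egln3* has no value.

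Counted at 2-fold against DMSO, 1 of the 8 members compared was higher with MG132 (*Ndrg1*), where 7.24% of the 13769 genes compared were higher. Of 9 members compared, 1 was higher with epoxomicin (*Ndrg1*), against 8.41% of 13869 genes. Of 9 compared with ONX0914, 1 was higher (*Vegfa*), against 3.27% of 13793 genes. *Vegfa* with epoxomicin was a bound, at least 1.70-fold higher, which does not show whether it passed 2-fold. None was shown to be 2-fold lower with any inhibitor, where 3.65%, 4.49% and 1.41% of genes were lower with MG132, epoxomicin and ONX0914. *Adm* was a bound with each inhibitor, which does not show whether it passed 2-fold. The faintest *Bnip3* probe, which did not stand for the gene, gave -1.05 with MG132. A single member is the smallest count above 0, and nothing particular to the members is read from it. The median difference of the members that could be compared was -0.27 with MG132 (8 genes), -0.31 with epoxomicin (9 genes) and 0.23 with ONX0914 (9 genes), beside -0.02, -0.04 and -0.01 for all genes. The epoxomicin median is the bound of *Adm* and the MG132 median rests in part on its bound. Over the 7 members measured on all arrays the medians were -0.22, -0.43 and 0.23. Across the alternative settings, the median of the members compared ran from -0.46 to -0.05 with MG132. It ran from -0.43 to -0.17 with epoxomicin and from 0.02 to 0.23 with ONX0914. The members did not shift as a block. Measured differences ran from -0.90 to 1.18 with MG132, from -0.74 to 1.69 with epoxomicin and from -0.54 to 0.52 with ONX0914. The ONX0914 value of *Vegfa*, 2.83, is a bound.

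The inhibitors were also set against each other at the same dose and time, in 3 pairs. Between ONX0914 and epoxomicin, 3 of the 8 members compared were at least 2-fold apart, *Vegfa* and *Slc2a1* higher and *Ndrg1* lower with ONX0914, where 5.94% of 13792 genes were 2-fold apart in either direction. Between ONX0914 and MG132, only *Vegfa* was, against 4.12% of 13705 genes. None of the members was shown to be 2-fold apart between epoxomicin and MG132, against 1.5% of 13628 genes. *Vegfa* entered this pair as a bound, at least 0.30 higher with epoxomicin, which does not show whether it passed 2-fold. In the authors' values it was 1.35 higher. Without replicates, differences below 2-fold between the inhibitors do not show that they acted alike. With normexp, only 1 member remained 2-fold apart between ONX0914 and epoxomicin.

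By a Euclidean distance over the 3 differences from DMSO, the genes most like *Ndrg1* among 12723 others well above background on all arrays were *Cgas*, the cytosolic DNA sensor (distance 0.061), *Rgl1* (0.113) and *Sema3c*, a secreted semaphorin (0.119), where the median gene lay at 2.15. The differences of *Cgas* were 1.22, 1.69 and 0.28. The genes most like *Hk2*, the member with the largest mean decrease, were *Jade1* (0.030), *4930579G24Rik* (0.054) and *Vps26c* (0.055), where the median gene lay at 1.25. The distance rests on 3 values that share 1 control array.

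Another 58 genes of the pathway were listed by role, and all had a probe. At 2-fold, MG132 had 5 higher, epoxomicin 6 and ONX0914 2, and each had 2 lower, of 52, 53 and 54 genes compared. Among all genes, 7.24%, 8.41% and 3.27% were higher and 3.65%, 4.49% and 1.41% lower, and nothing particular to the list is read from these counts. Their median differences were -0.14, -0.14 and -0.07. Of the 52 that could be compared with all 3 inhibitors, 42 (80.8%) passed 2-fold with none, beside 86.5% of 13462 genes. *Edn1*, *Mxi1*, *Car12* and *Lox* were well above background on no array and could not be compared. Values below are those of a gene's brightest probe unless another is named.

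None of the other HIF subunits had a measured difference from DMSO of 2-fold. The brightest probe of *Arnt*, the constant partner (1280 with DMSO), differed from DMSO by -0.25, -0.09 and -0.17 with MG132, epoxomicin and ONX0914. A second probe (521.7 with DMSO) had the opposite sign, with 0.22, 0.34 and 0.19, and the mean of both gave -0.01, 0.12 and 0.01. *Epas1*, which encodes HIF-2α, differed by 0.04, -0.11 and 0.13, and *Arnt2* by -0.04, -0.22 and 0.14. *Hif3a*, another α subunit gene, was well above background with DMSO only. It was at least 1.07-fold lower with epoxomicin and 1.15-fold lower with ONX0914, bounds that do not show whether it passed 2-fold.

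Among the 14 regulators, *Egln2*, the PHD1 hydroxylase gene, was bright, with signals of 13900, 7089, 7249 and 9397 with DMSO, MG132, epoxomicin and ONX0914. Its differences from DMSO were -0.79, -0.96 and -0.53. *Vhl* differed by 0.43, 0.51 and -0.02. For the other parts of its ubiquitin ligase, *Elob*, *Eloc*, *Cul2* and *Rbx1*, the brightest probes gave differences from -0.57 to -0.02. Other probes differed in sign, since one *Rbx1* probe (2924 with DMSO) gave 0.29 with MG132 and 0.27 with epoxomicin, and one *Cul2* probe (385.0 with DMSO) gave 0.05 with MG132 and 0.24 with ONX0914. With ONX0914, normexp turned *Elob* to 0.04 and *Rbx1* to 0.05. *Hif1an*, the asparagine hydroxylase that blocks the factor's activation domain, stayed between -0.11 and 0.03, and its coactivators *Crebbp* and *Ep300* between -0.42 and 0.30. *Os9* stayed between -0.06 and 0.09.

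Of the 14 regulators, 4 passed 2-fold with at least 1 inhibitor. Among the 13462 genes compared with all 3 inhibitors, 86.5% passed it with none. Nothing particular to the regulators is read from this count. *Siah1a*, a ubiquitin ligase that targets prolyl hydroxylases, had differences of 1.08, 1.25 and 0.48 at a low signal (166.9 with DMSO). Both 2-fold differences were lost with normexp, which gave 0.03, 0.09 and -0.44, and the one with MG132 also without scaling, with quantile normalization and with a shift to the medians. Its relative *Siah2* had 0.93, 1.19 and 0.69. *Hsp90aa1*, a heat-shock chaperone that holds HIF-1α among many clients, had signals of 40570, 125900, 185900 and 54230 and differences of 1.82, 2.17 and 0.46. *Cited2*, which competes with the factor for its coactivators and is a HIF target, was lowest with ONX0914 (-1.17), with -0.72 and -0.52 for MG132 and epoxomicin.

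**Figure D4:**
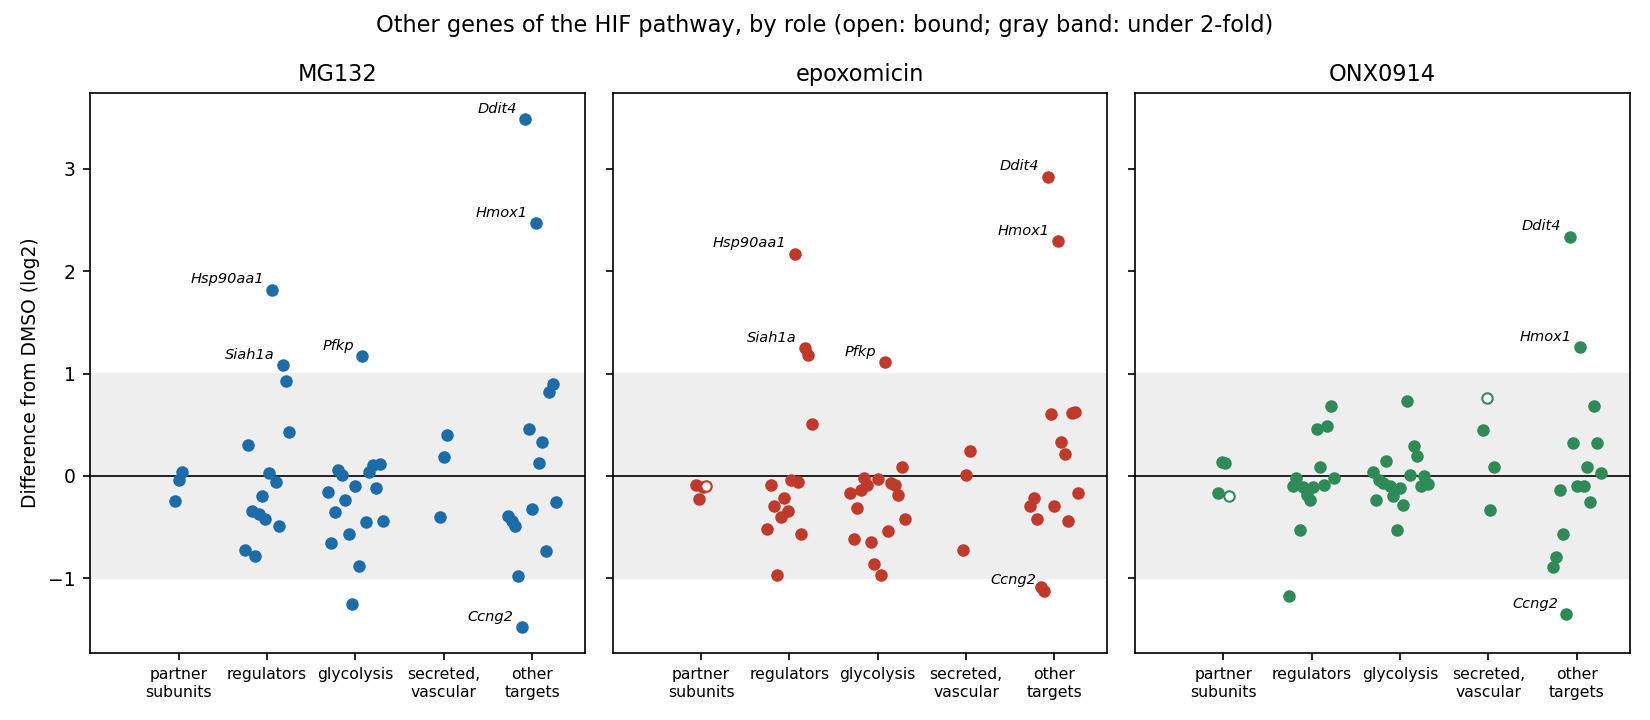
Difference from DMSO (log2, y axis) of the other HIF pathway genes, grouped by role (x axis), with 1 panel per inhibitor. Each point is a gene, open points are bounds, the gray band spans differences under 2-fold, and labels mark genes past 2-fold in that panel that passed it the same way with at least 2 inhibitors. Most points lie in the band, including all but 2 of the 17 glycolysis genes with MG132. The group marked partner subunits also holds the α subunit genes *Epas1* and *Hif3a*.

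Of 17 glycolysis genes, 1 was 2-fold higher with MG132 and with epoxomicin and 1 was lower with MG132. The higher one was *Pfkp*, the platelet phosphofructokinase, with differences of 1.17, 1.11 and 0.73. A faint second probe (100.1 with DMSO) gave 0.59, 0.23 and 0.24, and the mean of both was under 2-fold. The lower one was *Pdk1*, the kinase that keeps pyruvate out of the mitochondria, with -1.25, -0.86 and -0.53. Its MG132 difference was -0.75 with outlier spots left out of the normexp fit. *Ldha*, lactate dehydrogenase and a standard HIF target, had -0.56, -0.64 and -0.20. Of the 17 genes, 11 fell below 0 under MG132, 15 under epoxomicin and 10 under ONX0914. The matching counts for all genes were 7173 of 13769, 7443 of 13869 and 7061 of 13793. With epoxomicin, *Gapdh*, *Gpi1*, *Hk1*, *Pfkfb4*, *Pgk1* and *Pkm* lay between -0.14 and -0.02, and each turned above 0 under at least 1 alternative setting. The other genes below 0 with epoxomicin stayed below it. Under MG132 and ONX0914 some signs turned in either direction. The counts thus depend on the setting, and nothing particular to glycolysis is read from them.

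Of the 5 other secreted and vascular genes reported here, none had a measured difference from DMSO of 2-fold. *Angptl4*, a secreted inhibitor of lipoprotein lipase, had -0.40, -0.72 and 0.44, and ONX0914 exceeded epoxomicin by 1.17, as for *Slc2a1*. *Epo*, the hormone through which the factor was first known, was well above background with ONX0914 only (24.2, beside 3.60 with DMSO). *Epo* was at least 1.69-fold higher with ONX0914 than with DMSO, a bound that does not show whether it passed 2-fold.

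Of the 18 other targets, 2 were at least 2-fold higher with all 3 inhibitors and 1 was lower with all 3. The share of all genes past 2-fold with all 3 is not given, and nothing particular to these targets is read from the counts. *Ddit4*, an inhibitor of mTORC1 that other stresses also induce, had signals of 9238, 91000, 71350 and 45490 and differences of 3.49, 2.92 and 2.34. *Hmox1*, heme oxygenase 1, which is also a target of Nrf2, had 2.47, 2.29 and 1.26. *Ccng2*, cyclin G2, had -1.48, -1.12 and -1.35 at faint signals of 79.8, 25.2, 37.4 and 30.5. With outlier spots left out of the normexp fit, its differences were -0.04, -0.35 and -0.35, and none passed 2-fold. *Bnip3l*, the close relative of *Bnip3*, had -0.49, -0.42 and -0.14, beside -0.50, -0.43 and -0.29 for *Bnip3*. *Car9*, the membrane carbonic anhydrase often used as a marker of hypoxia, was below DMSO on every inhibitor array, with -0.97, -1.08 and -0.57, and -0.90 for epoxomicin with outlier spots left out of the normexp fit.

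As for the arrays themselves, 60.3% to 63.1% of spots were well above background and the 75th percentile of the signal ran from 1453 to 1683. Of 8 macrophage markers, 7 had a probe, and all 7 exceeded background on every array and had a summed signal between 203470 and 250064, most of it from *Csf1r*. *Lyz2*, the macrophage lysozyme gene, differed from DMSO by -0.60, -1.01 and 0.13, and *Spi1*, which encodes the myeloid factor PU.1, by -0.52, -0.98 and 0.08, beside -0.22, -0.60 and 0.40 for *Slc2a1* and -0.58, -0.74 and 0.01 for *Egln1*. The other 5 markers stayed between -0.29 and 0.35. Of 15 markers of T, B, endothelial, fibroblast and epithelial cells, 4 to 6 were well above background, with a summed signal between 6226 and 7457, most of it from *Kdr*. *Krt8* read 37.8 with MG132 and 121.0 with epoxomicin and 4.16 and 5.30 with DMSO and ONX0914. The part of these marker differences in the results was not tested. The median difference of 9 reference genes was -0.18, -0.14 and -0.03 with MG132, epoxomicin and ONX0914, and among them *Gusb* had -1.48 and -1.36 with MG132 and epoxomicin.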

How the data were processed

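The authors deposited scanner files of Feature Extraction 10.7.1.1 with the processed intensity of each spot, background-subtracted within the array, its scanner error and 0 or 1 calls, and log2 values from GeneSpring, each relative to its probe's median. The Methods name a human array, but the file headers describe a mouse design on mm9, whose coordinates were not used. The 4 arrays shared 1 slide. Control spots and spots called outliers were left out, log2 intensity minus the array's 75th percentile was taken, and spots of a probe were averaged. Of 39429 probes, 26581 (67.4%) were named by transcript accession through RefSeq (GRCm38.p6). A gene was compared where 1 of the 2 arrays was well above background, with a bound for the other. *Polr2a* and *Cd68* had no named probe, and 1 listed pathway gene is not reported here.

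The text names every member with each probe, subunits and regulators well above background, and other pathway genes 2-fold from DMSO with 2 or more inhibitors; *Siah2*, *Cited2*, *Pdk1*, *Ldha*, *Angptl4*, *Epo*, *Edn1*, *Mxi1*, *Car12*, *Lox*, *Bnip3l*, *Car9*, *Kdr*, *Krt8*, *Csf1r*, *Lyz2*, *Spi1* and *Gusb* were chosen after their values were seen. Members, lists and tests were chosen with earlier results of these data known. Calculations were tested on simulated data whose changed genes all had bright signals with DMSO and changed well past 2-fold. Changes of faint genes such as *Vegfa*, *Adm* and *Egln1* were not covered by that test. Python 3.11.15, numpy 2.4.6, pandas 2.3.3, matplotlib 3.10.9, R 4.3.3 and limma 3.58.1 (normexp, offset 50) were used. The smallest move called a change of a difference was 0.0851, from a spread of 0.0602 between spots of a probe.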

Additional observations from a re-analysis of the deposited data

How the results depend on the processing

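With 1 array per condition, culture variation was not measured. Of 535 recomputed member differences, 402 moved by less than 0.0851 and 133 by more. The sign turned in 11, each of a difference with a size under 0.20, as for *Egln1* with ONX0914 (-0.04 with the percentile over detected probes, -1.16 with normexp). None of 1740 recomputed differences of other pathway genes turned a 2-fold difference the other way, but 53 of 159 differences took another sign under at least 1 alternative. Normexp moved the median of all genes to -0.27, -0.30 and -0.17 with MG132, epoxomicin and ONX0914. No scaling moved it to -0.20 with MG132, the reference genes to 0.15 and 0.10 with MG132 and epoxomicin. The share of calls that were higher was 66.5%, 65.2% and 69.9%, against 15.7%, 15.8% and 6.6% with normexp, 45.0% (MG132) without scaling, 55.3% (MG132) with medians, 80.9% and 77.7% (MG132, epoxomicin) with reference genes, and 59.2% (ONX0914) in the authors' table. The causes were not tested.

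Counts that changed by more than a factor of 1.5 were as follows, and smaller changes are not listed. For example, members apart between ONX0914 and epoxomicin went from 3 to 4 at 1.5-fold and to 2 without scaling. Pathway genes higher with epoxomicin went from 6 to 9 at 1.5-fold. At 1.5-fold, 2 and 3 members were higher and 1 and 3 lower with MG132 and epoxomicin, 3 were apart between ONX0914 and MG132, 8 and 6 pathway genes were higher with MG132 and ONX0914, and 8, 8 and 4 were lower with MG132, epoxomicin and ONX0914. At 4-fold, 0 members were higher with MG132 or epoxomicin, 1 was apart between ONX0914 and epoxomicin, 2, 3 and 1 pathway genes were higher and 0 lower. With normexp, 0 members were higher with ONX0914 and 2 were lower with each inhibitor. Between ONX0914 and MG132 or epoxomicin 0 and 1 were apart, and 4, 5 and 5 pathway genes were lower. Among all genes, 192 of 13703 were higher with ONX0914, and 2525 of 13712, 3028 of 13719 and 2707 of 13703 were lower. With outlier spots left out of the normexp fit, chosen after seeing the data, 0 and 1 members were apart between ONX0914 and MG132 or epoxomicin. Of the pathway genes 0, 0 and 1 were lower, and of all genes 283 of 13621, 378 of 13862 and 74 of 13720. Without scaling, 0 members were higher and 1 lower with MG132, and 3 pathway genes higher and 4 lower. Of all 13896 genes compared there, 739 were higher and 903 lower. With medians, 1 member was lower with MG132 and 4 pathway genes with epoxomicin. Of all genes, 687 of 13841 and 766 of 13918 were lower with MG132 and epoxomicin. With reference genes, 2 members were apart between ONX0914 and MG132, and 0 pathway genes were lower with epoxomicin, where 417 of 13768 genes were. With the mean of a gene's probes, or genes detected on all 4 arrays, 0 members were higher with ONX0914 and 0 apart between ONX0914 and MG132. Of all genes, 452 of 13644 and 289 of 12730 were higher with ONX0914 in these settings. With the authors' table, or signals in place of bounds, 2 members were higher with epoxomicin and 1 was apart between epoxomicin and MG132. Of 14045 genes, 1191 and 1233 were higher with epoxomicin in these settings. Shares of all genes at 1.5-fold and 4-fold, and of all genes apart between inhibitors in these settings, are not given. Nothing particular to the members or the pathway is read from these counts. No paired analysis was possible because each condition had 1 array.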
